A study of Mus musculus with 14 samples.

Results

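The unfolded protein response and the degradation of misfolded proteins of the endoplasmic reticulum (ER) were described in mouse pancreatic islets, across genotype and time on a high-fat diet. The genes were 33 that encode ER stress sensors, their transcription factors, ER chaperones, disulfide isomerases, degradation factors and stress targets. A gene was included where a probe set of the array carried its symbol and no other, and its brightest probe set over the 14 arrays was used. This gave values for 31 of the 33 genes, out of 18820 genes tested. Ddit3 and Pdia4 have no value here, because their probe sets carry further symbols. The 2 probe sets of Dnajc3 held the same values.

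The mice were Tlr2/Tlr4 double knockouts (DKO) on a C57BL/6 background or wild-type C57BL/6 (WT). Both genes encode receptors by which innate immune cells detect bacterial products. All mice received a diet with 60% fat from 6 weeks of age, for 7 months (4 DKO and 4 WT arrays) or for 5 weeks (2 DKO and 4 WT arrays). The labels describe each sample as islets from a mouse, name no tissue-specific driver for the knockout, and do not say whether DKO and WT mice were littermates. No group received a control diet, and mice were older at 7 months, so time on the diet and age cannot be told apart. Values are log2 signals, and levels of different probe sets are not compared.

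Proteins that enter the ER are folded by chaperones and disulfide isomerases. When unfolded proteins accumulate, the sensors IRE1 (encoded by Ern1), ATF6 and PERK (encoded by Eif2ak3) start the unfolded protein response. IRE1 splices the mRNA of the transcription factor Xbp1, ATF6 is cut to release a transcription factor, and PERK slows translation while favouring translation of ATF4. XBP1 and ATF6 drive genes of chaperones and of ER-associated degradation (ERAD), which exports misfolded proteins to the proteasome, and ATF4 drives genes of amino acid metabolism and stress. Beta cells make and fold large amounts of proinsulin and are a standard setting for the study of this response. An array reads the amount of RNA, not the splicing of Xbp1, the cleavage of ATF6 or the phosphorylation of PERK.

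Array medians lay between 3.89 and 3.98, and arrays correlated at 0.986 to 0.995 within groups and at 0.978 to 0.993 between groups. Tlr2 was 5.18 to 5.41 in DKO and 6.24 to 6.53 in WT islets at 7 months, and 4.77 to 4.82 in DKO and 6.22 to 6.62 in WT islets at 5 weeks. Tlr4 lay below every array median and does not check the labels. The islet hormone genes Ins2 (11.76 to 11.99) and Gcg (11.91 to 13.01) were high on all arrays, as the label of the tissue says. Cpa1, a digestive enzyme gene of acinar cells, ranged from 6.91 to 11.12. DKO replicate 2 at 7 months stood apart from the other 3 DKO arrays of that time in many of the genes below, and the differences that moved most without it are given in both ways. Its Tlr2 value, 5.29, lay within the range of its group.

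At 7 months, the ERAD genes Sel1l and Edem1 and the co-chaperone gene Dnajc3 were higher in DKO than in WT islets, by 1.35-fold to 1.41-fold. Of the 31 genes, Sel1l, Edem1 and Dnajc3 rose and none fell (limma, Benjamini-Hochberg over all genes, adjusted p under 0.05), beside 4.71% of all genes called in either direction, 2.44% called higher and 2.27% called lower. These are 9.68% of the measured genes. The median difference, DKO minus WT, was 0.25 on the log2 scale against 0.01 over all genes. The difference was positive for 28 of the 31 genes, against 53.1% of all genes, and 11 passed an unadjusted p under 0.05. Here and below, the share of all genes under this unadjusted cutoff is not given. Such counts therefore have no reference and are not read as a result. For 3 genes, Sel1l, Edem1 and Atf3, every DKO array lay above every WT array, as it did for 5.35% of all genes, and for no gene every DKO array lay below (5.25% of all genes). In bulk tissue, fewer cells of a type and less RNA per cell cannot be told apart.

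**Figure D1:**
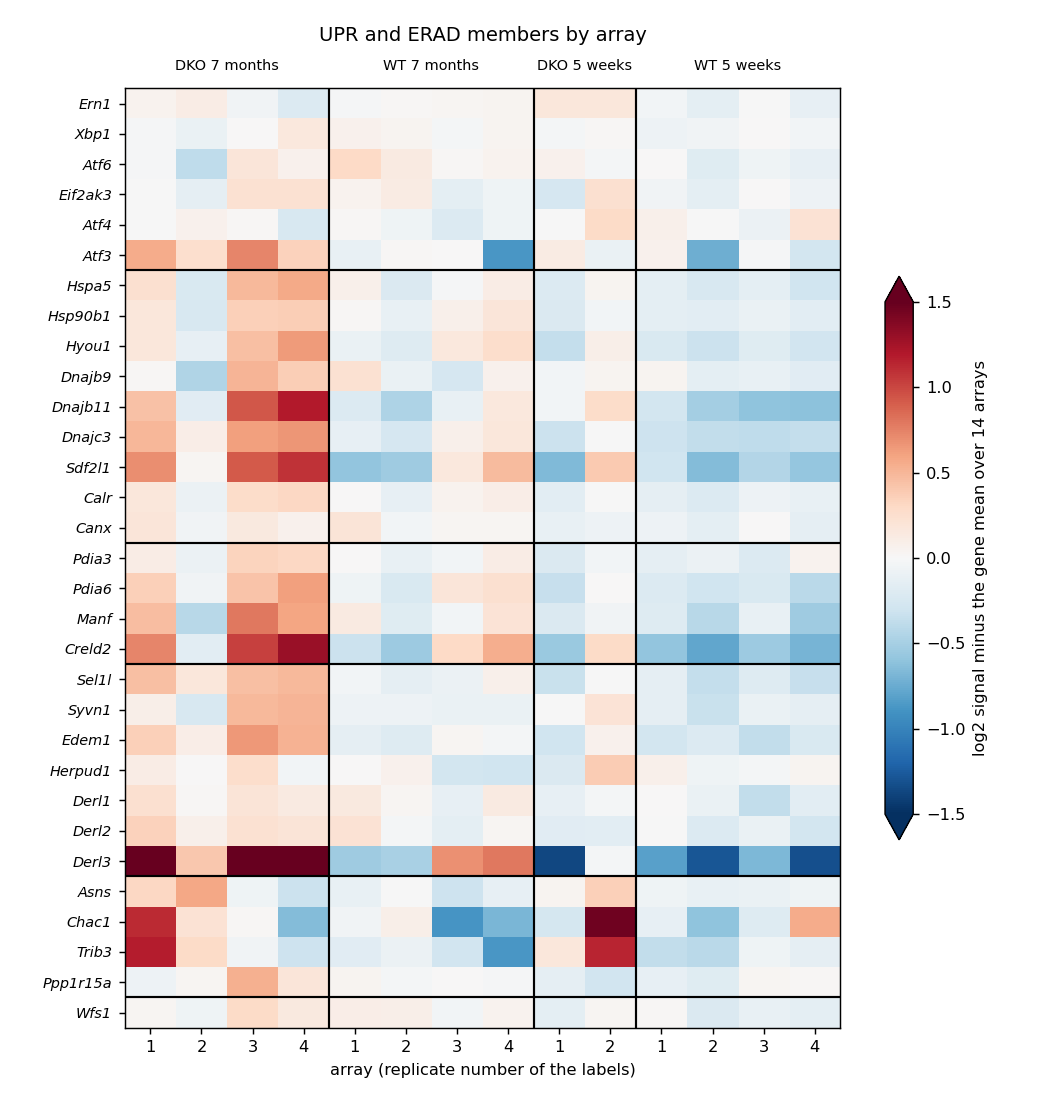
Log2 values of the 31 genes on the 14 arrays (columns, grouped as DKO and WT at 7 months and DKO and WT at 5 weeks), each gene centred on its mean over the arrays and ordered by role (rows). The chaperone, isomerase and secreted protein rows averaged 0.32, 0.56 and 0.62 above their means on DKO replicates 1, 3 and 4 at 7 months, and -0.15 on DKO replicate 2.

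Among the ERAD genes, Sel1l, the adaptor of the ubiquitin ligase HRD1, was 9.53, 9.25, 9.53 and 9.57 in DKO islets and 9.03, 8.94, 8.99 and 9.15 in WT islets at 7 months. All DKO values lay above all WT values, with DKO replicate 2 the lowest of its group. The difference was 0.44 ± 0.10 on the log2 scale (SE; 1.35-fold, limma adjusted p = 0.0209, n = 4 each). Edem1, a lectin that hands misfolded glycoproteins to degradation, was 8.97, 8.72, 9.27 and 9.14 in DKO islets and 8.48, 8.43, 8.64 and 8.59 in WT islets. The groups did not overlap, and DKO replicate 2 was again the lowest of its group. The difference was 0.49 ± 0.12 (SE; 1.40-fold, limma adjusted p = 0.0255).

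The largest difference among the 31 genes at 7 months was that of Derl3, a derlin of the ERAD export machinery, but it did not pass the test. Derl3 was 9.55, 8.43, 9.52 and 9.62 in DKO islets and 7.49, 7.54, 8.71 and 8.82 in WT islets. DKO replicates 1, 3 and 4 lay above all WT arrays, whereas DKO replicate 2 lay below WT replicates 3 and 4, and the WT arrays themselves fell into a low and a high pair. The difference was 1.14 ± 0.36 (SE; 2.20-fold, limma adjusted p = 0.0929). Syvn1, which encodes HRD1 itself, differed by 0.30 ± 0.14 (limma adjusted p = 0.263). Its 4 WT values were 7.53 to 7.56, while its DKO values were 7.72, 7.39, 8.12 and 8.14, so that DKO replicate 2 alone lay below the WT range. The other derlin genes and Herpud1, a scaffold of the HRD1 complex, did not pass either. Derl2 averaged 7.94 ± 0.11 in DKO and 7.74 ± 0.15 in WT islets (SD, n = 4 each). Derl1 averaged 8.65 ± 0.10 in DKO and 8.55 ± 0.13 in WT islets, and Herpud1 10.69 ± 0.13 in DKO and 10.48 ± 0.19 in WT islets. In all, 2 of the 7 ERAD genes rose, all 7 differences were positive, and their median was 0.30 against 0.01 over all genes.

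**Figure D2:**
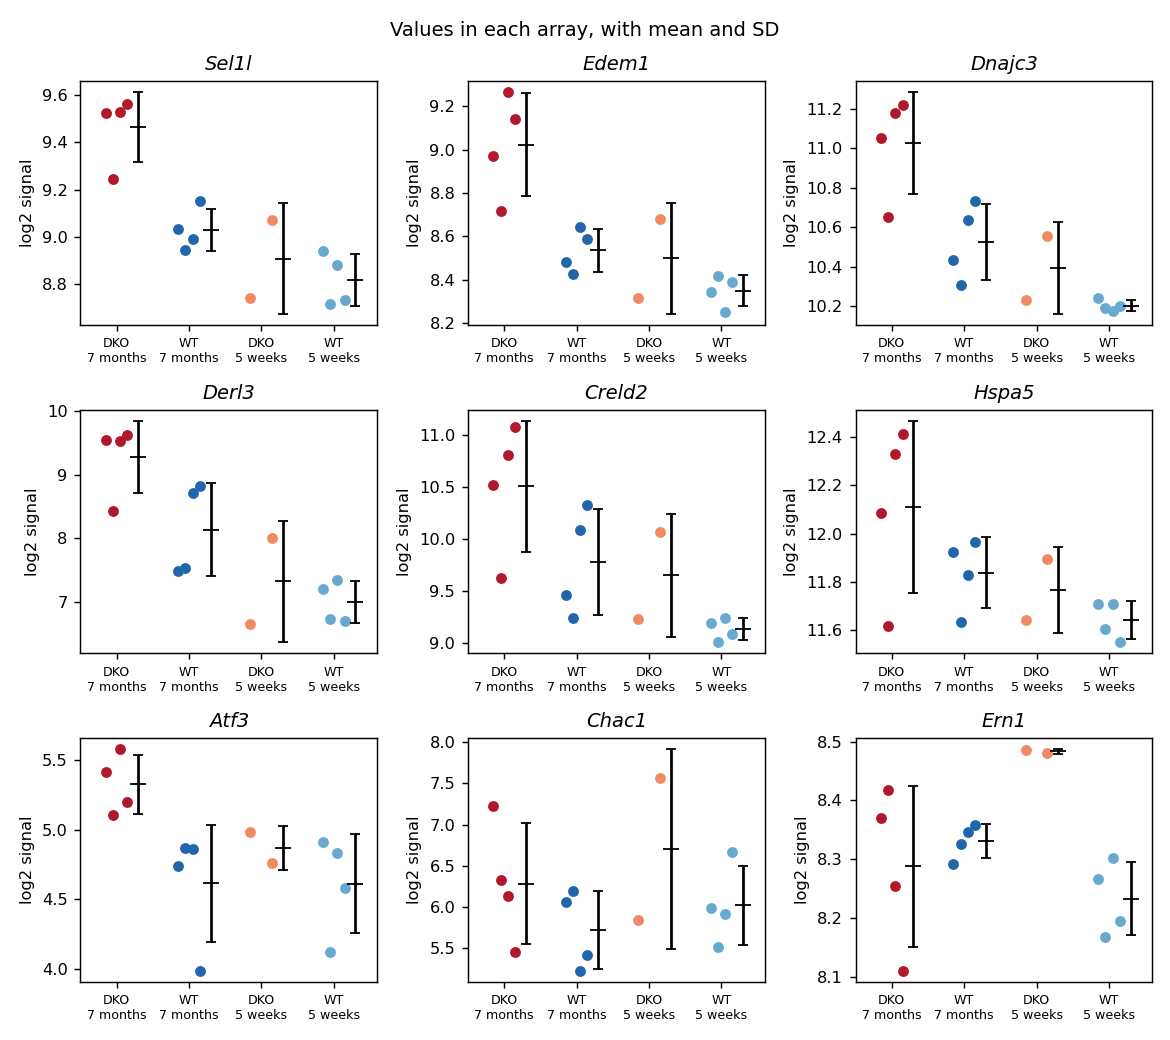
Log2 values of 9 genes on every array, by group (DKO and WT at 7 months, DKO and WT at 5 weeks), with each point an array and a bar at the group mean ± SD. Sel1l and Edem1 separated DKO from WT at 7 months, whereas in Derl3 and Creld2 the DKO replicate with the lowest value lay among the WT arrays.

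Dnajc3 encodes a co-chaperone of the ER lumen that also restrains PERK. It was 11.05, 10.65, 11.18 and 11.22 in DKO islets and 10.43, 10.31, 10.64 and 10.73 in WT islets at 7 months. DKO replicate 2 lay just below the highest WT array, and the other DKO arrays lay above all WT arrays. The difference was 0.50 ± 0.13 (SE; 1.41-fold, limma adjusted p = 0.037). Hspa5 encodes BiP, the main ER chaperone, and was 12.08, 11.62, 12.33 and 12.41 in DKO islets and 11.92, 11.63, 11.83 and 11.96 in WT islets. DKO replicate 2 was the lowest of these 8 arrays and the other DKO arrays were the 3 highest. The difference, 0.27 ± 0.14, did not pass (SE; limma adjusted p = 0.338).

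Of the 9 chaperone and co-chaperone genes, 1 rose, 8 did not pass, and all 9 differences were positive, with a median of 0.25. Dnajb11, a co-chaperone that delivers substrates to BiP, differed by 0.76 ± 0.23 (limma adjusted p = 0.0761), with 8.48, 7.88, 8.98 and 9.24 in DKO and 7.84, 7.59, 7.94 and 8.20 in WT islets. Sdf2l1, a partner of BiP and Dnajb11, differed by 0.80 ± 0.27 (limma adjusted p = 0.118), with 10.13, 9.46, 10.35 and 10.52 in DKO and 8.85, 8.91, 9.59 and 9.91 in WT islets. In both genes DKO replicate 2 lay among the WT arrays and the other DKO arrays lay above all of them. The smallest difference of the group was that of the lectin chaperone gene Canx, which averaged 11.13 ± 0.10 in DKO and 11.10 ± 0.10 in WT islets (SD, n = 4 each). Its partner Calr averaged 11.42 ± 0.18 in DKO and 11.26 ± 0.10 in WT islets, and the ER HSP90 gene Hsp90b1 11.69 ± 0.28 in DKO and 11.56 ± 0.12 in WT islets. Hyou1, an exchange factor of BiP, differed by 0.25 ± 0.15 (limma adjusted p = 0.429). Dnajb9, a BiP co-chaperone that represses IRE1, averaged 10.71 ± 0.43 in DKO and 10.59 ± 0.21 in WT islets.

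None of the 4 measured genes of disulfide isomerases and secreted ER stress proteins passed (limma; 2 had an unadjusted p under 0.05), all 4 differences were positive, and their median was 0.32. Creld2, a secreted ER stress protein, was 10.52, 9.62, 10.81 and 11.08 in DKO islets and 9.46, 9.24, 10.09 and 10.32 in WT islets. The DKO arrays other than replicate 2 lay above all WT arrays, and the difference was 0.73 ± 0.29 (SE; limma adjusted p = 0.189). The isomerase gene Pdia6 differed by 0.30 ± 0.14 (limma adjusted p = 0.268) and Manf, which encodes a neurotrophic factor held in the ER, by 0.33 ± 0.20 (adjusted p = 0.424). Pdia3, the isomerase that works with Calr and Canx, averaged 11.45 ± 0.20 in DKO and 11.27 ± 0.09 in WT islets (SD, n = 4 each).

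**Figure D3:**
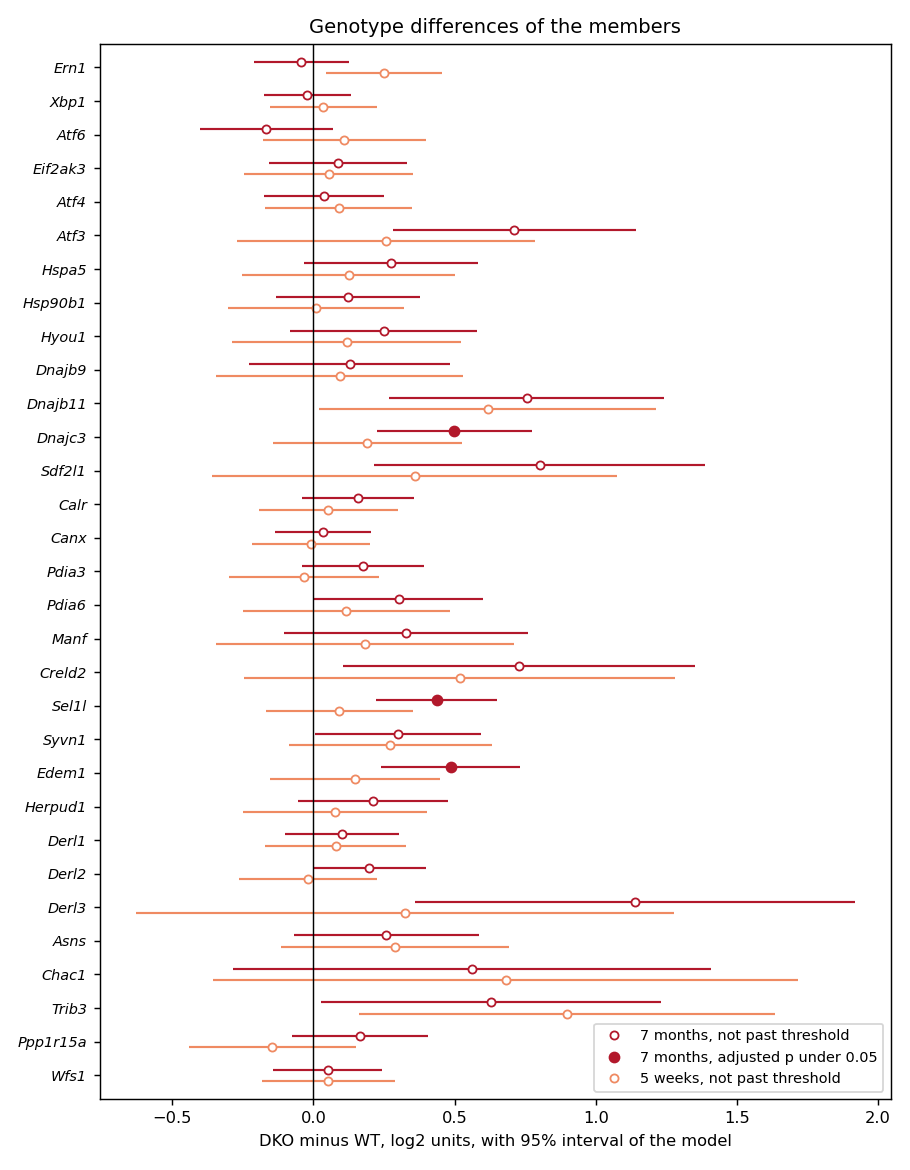
Difference DKO minus WT on the log2 scale for each of the 31 genes at 7 months and at 5 weeks, with the 95% confidence interval of the limma fit. At 7 months 28 of 31 differences were positive and 3 genes passed the test, and at 5 weeks 27 were positive (13 without DKO replicate 2) and none passed.

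None of the 6 sensor and transcription factor genes passed at 7 months (limma; 1 had an unadjusted p under 0.05), 3 differences were positive, and the median was 0.01. Xbp1 was 9.43, 9.35, 9.45 and 9.60 in DKO islets and 9.52, 9.49, 9.42 and 9.49 in WT islets at 7 months. Ern1 was 8.37, 8.42, 8.25 and 8.11 in DKO islets and 8.29, 8.33, 8.35 and 8.36 in WT islets. The genotypes overlapped in both, and the differences were -0.02 ± 0.07 and -0.04 ± 0.08 (SE; limma adjusted p = 0.917 and 0.83), with 95% confidence intervals of -0.18 to 0.13 and -0.21 to 0.12.

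Atf6 was 9.04, 8.68, 9.24 and 9.12 in DKO islets and 9.36, 9.20, 9.08 and 9.12 in WT islets, a difference of -0.17 ± 0.11. Eif2ak3 was 8.15, 8.03, 8.38 and 8.39 in DKO islets and 8.21, 8.28, 8.01 and 8.09 in WT islets, a difference of 0.09 ± 0.11. Atf4 was 8.19, 8.27, 8.22 and 7.95 in DKO islets and 8.21, 8.13, 7.99 and 8.14 in WT islets, a difference of 0.04 ± 0.10. All overlapped between genotypes and none passed (limma adjusted p = 0.464 for Atf6, 0.753 for Eif2ak3 and 0.885 for Atf4). Atf3, a stress-induced transcription factor downstream of ATF4, was the gene of this group with the largest difference. It was 5.42, 5.11, 5.58 and 5.20 in DKO islets and 4.74, 4.87, 4.86 and 3.99 in WT islets, with no overlap. The difference of 0.71 ± 0.20 missed the threshold (SE; 1.64-fold, limma adjusted p = 0.0586).

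Of 4 genes downstream of ATF4 (Asns, Chac1, Trib3 and Ppp1r15a) none passed at 7 months (limma; 1 had an unadjusted p under 0.05). All 4 differences were positive, with a median of 0.41, and their sizes turned on single arrays. Without DKO replicate 1 Trib3 differed by 0.33, Chac1 by 0.25 and Ppp1r15a by 0.25, without DKO replicate 2 Asns by 0.11, without DKO replicate 3 Ppp1r15a by 0.04, and without DKO replicate 4 Asns by 0.41. Chac1, a glutathione-degrading enzyme, was 7.22, 6.32, 6.13 and 5.45 in DKO islets and 6.05, 6.19, 5.22 and 5.41 in WT islets, a difference of 0.56 ± 0.40 (limma adjusted p = 0.498). Trib3, a pseudokinase, was 5.25, 4.36, 4.02 and 3.76 in DKO islets and 3.91, 3.98, 3.78 and 3.20 in WT islets. The difference was 0.63 ± 0.28 (limma adjusted p = 0.249), and since the WT mean lay below every array median its size is not exact. Of these 8 arrays DKO replicate 1 was the highest in Chac1 and Trib3, and DKO replicate 4 the lowest of its group in both. Asns, asparagine synthetase, was 10.30, 10.58, 9.93 and 9.67 in DKO islets and 9.89, 9.99, 9.69 and 9.88 in WT islets (0.26 ± 0.15, limma adjusted p = 0.405). Ppp1r15a, a subunit of the phosphatase that reverses the action of PERK, averaged 5.86 ± 0.27 in DKO and 5.69 ± 0.03 in WT islets (SD, n = 4 each). Wfs1, wolframin, an ER membrane protein of beta cells whose loss causes diabetes, averaged 8.73 ± 0.15 in DKO and 8.68 ± 0.06 in WT islets.

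The arrays ranked differently in the chaperones and in the ATF4 targets Asns, Chac1 and Trib3, but not all ATF4 targets followed these genes. The mean of the 13 chaperone, isomerase and secreted protein genes, each centred over the 14 arrays, was 0.32, -0.15, 0.56 and 0.62 in DKO islets and -0.06, -0.24, 0.04 and 0.20 in WT islets at 7 months. The same mean of Asns, Chac1 and Trib3 was 0.87, 0.36, -0.03 and -0.43 in DKO islets and -0.11, -0.0041, -0.49 and -0.56 in WT islets. DKO replicates 3 and 4 and WT replicates 3 and 4 were thus the highest of their groups in the chaperones and the lowest in Asns, Chac1 and Trib3. Ppp1r15a, which is not in this mean, was 5.61, 5.72, 6.22 and 5.87 in DKO islets at 7 months, highest in replicates 3 and 4. In WT islets it was 5.66 to 5.73. At 5 weeks DKO replicate 2 was higher than DKO replicate 1 in both means (0.07 against -0.27 in the chaperones, 0.99 against -0.02 in Asns, Chac1 and Trib3). The WT arrays at 5 weeks lay between -0.33 and -0.21 in the chaperones and between -0.37 and 0.12 in Asns, Chac1 and Trib3.

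**Figure D4:**
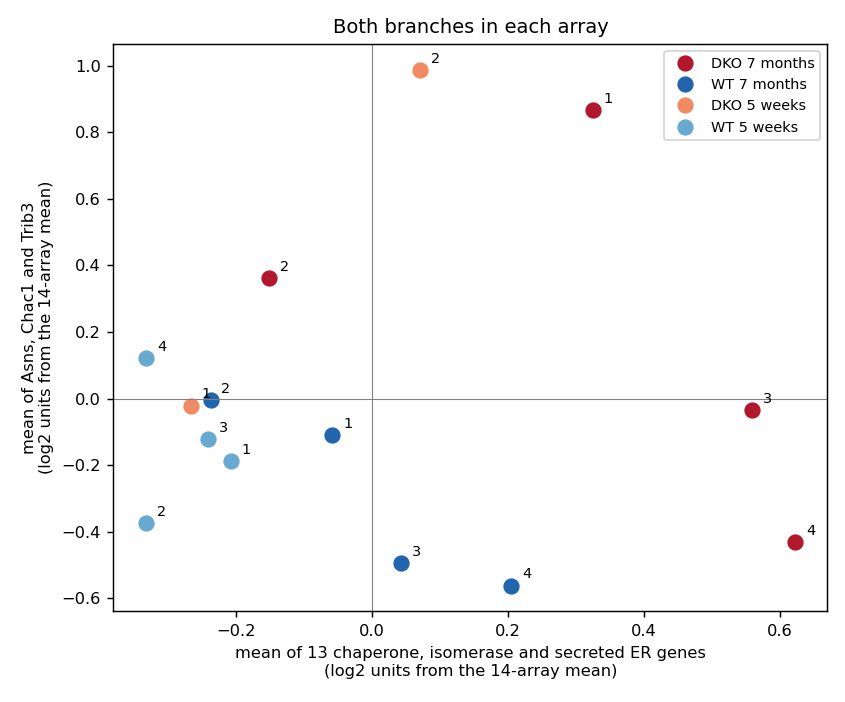
Mean centred log2 value of 13 chaperone, isomerase and secreted protein genes (x axis) against that of Asns, Chac1 and Trib3 (y axis), each point an array, by group. At 7 months the DKO arrays ran from 0.87 to -0.43 in the mean of Asns, Chac1 and Trib3. The DKO arrays lowest in this mean, replicates 3 and 4, were the highest in the chaperones. Ppp1r15a is not part of the mean.

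The number of genes called at 7 months turned on single arrays. DKO replicate 2 was singled out by its low values in these same genes. Larger differences without it follow in part from that choice and are no further evidence. Without DKO replicate 2, 12 of the 31 genes rose, beside 8.93% of all genes called. The 12 were Sel1l, Edem1, Dnajc3, Hspa5, Syvn1, Pdia6, Dnajb11, Sdf2l1, Manf, Creld2, Atf3 and Derl3, with Hspa5 at 0.44 ± 0.11 (limma adjusted p = 0.0228) and Dnajb11 at 1.01 ± 0.18 (adjusted p = 0.00323). Without that array Manf differed by 0.59, Syvn1 by 0.45, Pdia6 by 0.43, Creld2 by 1.02, Sdf2l1 by 1.02 and Derl3 by 1.42. Among genes that did not pass without it, Hyou1 differed by 0.39, Dnajb9 by 0.31, Hsp90b1 by 0.26, Calr by 0.24, Pdia3 by 0.26, Canx by 0.08, Eif2ak3 by 0.16, Wfs1 by 0.11 and Asns by 0.11. Atf6 then differed by -0.05 and Atf4 by 0.0017. Without WT replicate 1 or 2, or DKO replicate 3 or 4, none passed (limma), while 8 or 9 genes had an unadjusted p under 0.05 in each of these fits. Calls over all genes fell there too, to 2.81%, 2.81%, 2.82% and 3.18% in turn. Without WT replicate 3 or DKO replicate 1, Edem1 alone passed (3.15% and 3.46% of all genes called). Without WT replicate 4 again Sel1l, Edem1 and Dnajc3 passed (3.63%). Over these 8 fits the difference of Sel1l stayed between 0.40 and 0.51 (limma adjusted p = 0.00529 to 0.0691), that of Edem1 between 0.41 and 0.59 (0.00352 to 0.0866) and that of Dnajc3 between 0.43 and 0.62 (0.00344 to 0.118). With only the 8 arrays compared in the fit, Sel1l alone passed, beside 2.59% of all genes. The description labels carry a letter and a number, both of unstated meaning. The letters run with the groups, so whatever they mark cannot be told apart from genotype and time. The number is 5 or 7, with 2 DKO and 2 WT arrays of each at 7 months. Among arrays numbered 5 and 7 in turn the difference was 0.52 and 0.36 for Sel1l, 0.55 and 0.42 for Edem1, 0.58 and 0.42 for Dnajc3 and 1.43 and 0.85 for Derl3.

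At 5 weeks, with 2 DKO arrays, none of the 31 genes passed (limma), beside 0.994% of all genes (0.499% higher and 0.494% lower). An unadjusted p under 0.05 was reached by 3, for which the 0.994% is not the share to compare. The median difference, DKO minus WT, was 0.12 against 0.01 over all genes, and 27 were positive, against 51.8% of all genes. These values turned on the 2 DKO arrays: without DKO replicate 2 the median was -0.0251 with 13 of 31 positive, and without DKO replicate 1 it was 0.26 with 29 positive. For 5 genes (Ern1, Dnajb11, Syvn1, Asns and Trib3) both DKO arrays lay above all WT arrays, as they did for 11.2% of all genes, and for no gene both lay below all of them (10.3% of all genes). Ern1 was 8.49 and 8.48 in DKO islets and 8.27, 8.17, 8.30 and 8.19 in WT islets, a difference of 0.25 ± 0.10 (SE; limma adjusted p = 0.29, n = 2 and 4). Trib3 was 4.24 and 5.22 in DKO islets and 3.70, 3.67, 4.00 and 3.94 in WT islets, a difference of 0.90 ± 0.34 (limma adjusted p = 0.294). The WT mean of Trib3 was again below the array medians. Dnajb11 was 8.003 and 8.32 in DKO islets and 7.78, 7.54, 7.44 and 7.43 in WT islets (0.62 ± 0.28, limma adjusted p = 0.389). Without DKO replicate 2 Trib3 differed by 0.41, and without DKO replicate 1 by 1.39.

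The 3 genes that rose at 7 months did not pass between genotypes at 5 weeks. Sel1l was 8.74 and 9.07 in DKO and 8.94, 8.71, 8.88 and 8.73 in WT islets. Edem1 was 8.32 and 8.68 in DKO and 8.34, 8.42, 8.25 and 8.39 in WT islets. Dnajc3 was 10.23 and 10.56 in DKO and 10.24, 10.19, 10.18 and 10.20 in WT islets. In each, DKO replicate 2 was above all WT arrays and DKO replicate 1 lay within their range. The differences were 0.09 ± 0.12 for Sel1l (95% confidence interval -0.17 to 0.35), 0.15 ± 0.14 for Edem1 (-0.15 to 0.45) and 0.19 ± 0.16 for Dnajc3 (-0.14 to 0.53). Without DKO replicate 1 they were 0.26, 0.33 and 0.36, and without DKO replicate 2 they were -0.07, -0.03 and 0.03, in the same order of genes. The test of whether the genotype difference itself changed between the times called none of the 31 genes (limma), beside 0.0903% of all genes (0.0266% higher and 0.0638% lower), and 2 had an unadjusted p under 0.05. For Sel1l the difference at 7 months exceeded that at 5 weeks by 0.35 ± 0.16 (SE; limma adjusted p = 0.48), by 0.18 without DKO replicate 1 at 5 weeks and by 0.51 without DKO replicate 2 at 5 weeks. The median change over the 31 genes was 0.13 with 23 positive, against 50.7% of all genes. Without DKO replicate 1 at 5 weeks the median change was -0.0227 with 14 positive. For Ern1 the change was -0.29 ± 0.12 (limma adjusted p = 0.429).

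Between the times in DKO islets, 4 of the 31 genes rose and none fell, beside 7.57% of all genes called in either direction, 4.86% called higher and 2.7% called lower. The 4 were Sel1l, Edem1, Dnajc3 and Derl3. With dim genes left out these 4 and Derl2 rose, beside 15.5% of the 10871 genes kept. This comparison shares the DKO arrays at 7 months with the genotype comparison above. Derl3 was 9.55, 8.43, 9.52 and 9.62 at 7 months and 6.66 and 8.0 at 5 weeks. All values at 7 months lay above both at 5 weeks, and the difference was 1.95 ± 0.45 (SE; 3.87-fold, limma adjusted p = 0.016, n = 4 and 2). Sel1l rose by 0.56 ± 0.12 (limma adjusted p = 0.0125), Dnajc3 by 0.63 ± 0.16 (0.0236) and Edem1 by 0.53 ± 0.14 (0.0353), and none of these overlapped between the times.

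The median difference, 7 months minus 5 weeks, in DKO islets was 0.29 against 0.02 over all genes. Of the 31 differences 25 were positive, against 53.7% of all genes, and 11 had an unadjusted p under 0.05. Values did not overlap, with 7 months higher, for 9 genes, as for 15.7% of all genes, and with 7 months lower for Ern1, as for 11.1% of all genes. The difference of Ern1 was -0.20 ± 0.10 (limma adjusted p = 0.255). Hspa5 was 12.08, 11.62, 12.33 and 12.41 at 7 months and 11.64 and 11.89 at 5 weeks (0.35 ± 0.18, limma adjusted p = 0.278). Derl2 (0.38 ± 0.11, adjusted p = 0.0584), Pdia6 (0.50 ± 0.17, 0.0951), Creld2 (0.86 ± 0.36, 0.175) and Sdf2l1 (0.81 ± 0.34, 0.172) did not pass. The ATF4 targets gave differences of -0.42 for Chac1, -0.38 for Trib3, -0.08 for Asns and 0.38 for Ppp1r15a, none of which passed. Without DKO replicate 2 at 7 months, singled out by its low values in these genes, 13 genes rose (10.9% of all genes were called). Among them were Hspa5, Hsp90b1, Calr and Pdia3. Without DKO replicate 1 at 5 weeks none passed (limma; 7 had an unadjusted p under 0.05). Without DKO replicate 1 at 7 months Edem1 did not pass (5.62% of all genes called). Without DKO replicate 3 or 4 at 7 months (4.98% and 6.53%) Sel1l and Derl3 alone passed. They alone also passed with the acinar mean of the marker genes below in the fit (4.96%). With only the 6 DKO arrays in the fit none passed (limma, 8 unadjusted), beside 1.84% of all genes. Among arrays numbered 5 and 7 in turn (2 at 7 months and 1 at 5 weeks of each) the difference was 0.79 and 0.33 for Sel1l, 0.80 and 0.25 for Edem1, 0.89 and 0.38 for Dnajc3 and 2.88 and 1.02 for Derl3.

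In WT islets none of the 31 genes passed between the times (limma), beside 2.37% of all genes (1.35% higher and 1.01% lower), and 5 had an unadjusted p under 0.05. The median difference, 7 months minus 5 weeks, was 0.16 against 0.03 over all genes, and 26 were positive, against 56.75% of all genes. Derl3 was 7.49, 7.54, 8.71 and 8.82 at 7 months and 7.21, 6.75, 7.35 and 6.70 at 5 weeks, without overlap. Its difference was 1.14 ± 0.36 (SE; limma adjusted p = 0.139, n = 4 each). Creld2 (0.65 ± 0.29, adjusted p = 0.321), Dnajc3 (0.32 ± 0.13, 0.246), Pdia6 (0.32 ± 0.14, 0.315) and Sel1l (0.22 ± 0.10, 0.338) did not pass. For 6 genes all arrays at 7 months lay above all at 5 weeks, beside 7.9% of all genes, and for none did all lie below (3.66% of all genes).

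Markers of cell types and of tissue handling differed between the groups, given here as the mean of each list's genes centred over the arrays. Alpha cell genes (3 of 5 measured) were -1.02 to -0.80 in DKO and -0.11 to 0.09 in WT islets at 7 months, and delta cell genes (3 of 3) -1.07 to -0.79 in DKO and -0.05 to 0.18 in WT islets. Beta cell genes (9 of 10) were -0.16, 0.12, -0.19 and -0.18 in the DKO replicates and 0.03 to 0.09 in WT islets at 7 months. DKO replicate 2, the array lowest in the chaperones of its group, was thus the highest of these 8 arrays in beta cell genes. Stellate and fibroblast genes (8 of 8) were 0.27 to 1.06 in DKO and -0.56 to -0.29 in WT islets, and macrophage genes (8 of 8) 0.11 to 0.71 in DKO and -0.20 to -0.05 in WT islets. Of the macrophage genes, Mrc1, Itgam and Cd14 lay below the medians of all arrays. DKO replicate 4 at 7 months was the highest array in T cell genes (2.12, where the WT arrays of that time reached 0.04) and in B and plasma cell genes (1.10, where they reached -0.0034). Immediate early and heat shock genes that mark tissue handling (9 of 11) were 0.0044 to 0.56 in DKO and -0.47 to 0.17 in WT islets at 7 months, and -0.36 to -0.28 in DKO and 0.07 to 0.18 in WT islets at 5 weeks. Endothelial genes (6 of 6) were 0.17 to 0.38 in DKO and -0.05 to 0.07 in WT islets at 7 months, and pancreatic polypeptide cell genes (2 of 2) -1.16 to -0.52 in DKO and -0.06 to 0.40 in WT islets.

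The same lists differed between the times in DKO islets. Alpha cell genes were -1.02 to -0.80 at 7 months and 0.29 to 0.62 at 5 weeks, delta cell genes -1.07 to -0.79 at 7 months and 0.38 to 0.51 at 5 weeks, and pancreatic polypeptide cell genes -1.16 to -0.52 at 7 months and 0.47 to 0.58 at 5 weeks. Stellate and fibroblast genes were 0.27 to 1.06 at 7 months and -0.29 to -0.04 at 5 weeks, macrophage genes 0.11 to 0.71 at 7 months and -0.25 to -0.20 at 5 weeks, and endothelial genes 0.17 to 0.38 at 7 months and -0.33 to -0.08 at 5 weeks. In WT islets alpha cell genes were -0.11 to 0.09 at 7 months and 0.61 to 0.82 at 5 weeks. None of these ranges overlapped between the times. At 5 weeks alpha cell genes were 0.29 to 0.62 in DKO and 0.61 to 0.82 in WT islets, and stellate and fibroblast genes -0.29 to -0.04 in DKO and -0.16 to 0.16 in WT islets.

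Acinar cells and plasma cells are secretory cells rich in ER. Acinar genes (21 of 26) were -0.0001 to 0.61 in DKO and -2.35 to 0.74 in WT islets at 7 months, and 0.83 to 1.39 in DKO and -1.64 to 0.61 in WT islets at 5 weeks. The groups overlapped at 7 months. With the acinar mean as a covariate the genotype difference at 7 months was 0.47 for Sel1l, 0.55 for Edem1 and 0.58 for Dnajc3 (limma adjusted p = 0.0436, 0.0377 and 0.0403). Between the times in DKO islets the same covariate left 0.54 for Sel1l and 1.81 for Derl3 (adjusted p = 0.0332 and 0.0399), while Dnajc3 (0.57, 0.0598) and Edem1 (0.48, 0.0836) did not pass. The acinar gene Ptf1a and the B and plasma cell genes Cd79a, Mzb1 and Tnfrsf17 lay below the medians of all arrays. The part of any of the other lists in the differences was not tested.

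Other genes of the secretory pathway, 137 in 5 lists, gave 14 higher and 0 lower between genotypes at 7 months (10.2% called, beside 4.71% of all genes). These counts turned on single arrays, with 40 called without DKO replicate 2, 6 without WT replicate 1 or 2 or DKO replicate 3, 7 without DKO replicate 1, 8 without DKO replicate 4 and 9 without WT replicate 3. Beside them, 8.93% of all genes were called without DKO replicate 2. The share was 2.81% without WT replicate 1 or 2, 2.82% without DKO replicate 3, and 3.15% to 3.46% in the other fits named. With dim genes left out 17 were called, beside 10.3% of the genes kept. In the list of ER entry and signal peptide processing 6 of 29 genes rose in the fit of all genes, all 29 differences were positive, and the median was 0.31. Srp9, a subunit of the particle that targets ribosomes to the ER, was 10.08, 9.53, 10.19 and 10.04 in DKO and 8.86, 8.67, 9.05 and 9.001 in WT islets at 7 months. It did not overlap between genotypes and differed by 1.07 ± 0.13 (2.09-fold, limma adjusted p = 0.00024), and it also rose at 5 weeks (0.71 ± 0.16, adjusted p = 0.0495). Ddost, a subunit of the N-glycan transferase, rose by 0.60 ± 0.11 (limma adjusted p = 0.00686), the translocon-associated Ssr4 by 0.61 ± 0.12 (0.0101) and the signal peptidase subunit Sec11c by 0.58 ± 0.13 (0.0189). With each of the 8 arrays left out in turn, Srp9, Ddost and Ssr4 passed in each fit, while Sec11c lost the call without WT replicate 1 or 2 or DKO replicate 1, 3 or 4.

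Of 30 folding genes 3 rose at 7 months: Fkbp2, a prolyl isomerase (0.42 ± 0.08, limma adjusted p = 0.00874), Prdx4, an ER peroxiredoxin (0.62 ± 0.15, 0.0251), and Prkcsh, a glucosidase subunit (0.58 ± 0.14, 0.0304). Of 26 further ERAD genes 1 was called (3.85%, beside 4.71% of all genes), the lectin Os9 (0.36 ± 0.09, limma adjusted p = 0.0437), which kept the call only without WT replicate 4 or DKO replicate 2. Fkbp2 passed with each array left out in turn, Prdx4 only without WT replicate 3 or DKO replicate 2, and Prkcsh only without WT replicate 4 or DKO replicate 2. None of 14 further genes of the IRE1 and ATF6 arms passed at 7 months (limma), and 2 had an unadjusted p under 0.05. Of 38 genes of the integrated stress response and ATF4 targets 4 rose. These were the serine synthesis genes Phgdh (0.82 ± 0.11, limma adjusted p = 0.0007) and Psat1 (0.72 ± 0.14, 0.00753), Cbs, cystathionine beta-synthase (0.56 ± 0.12, 0.0184), and Ddit4, an inhibitor of mTORC1 signalling (0.89 ± 0.24, 0.0465). Phgdh was 7.52, 7.40, 7.21 and 7.68 in DKO and 6.62, 6.60, 6.57 and 6.76 in WT islets, without overlap. Phgdh and Psat1 passed with each array left out in turn, Cbs lost the call without WT replicate 1 or 2 or DKO replicate 3 or 4, and Ddit4 kept it only without DKO replicate 4.

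At 5 weeks 4 of the 137 genes were called (2.92%, beside 0.994% of all genes), Psat1 (1.00 ± 0.17, limma adjusted p = 0.0119) and Srp9 higher and Qsox1 (-0.87 ± 0.19) and Txndc12 (-0.44 ± 0.08), which encode an oxidase and a thioredoxin-like protein of disulfide chemistry, lower. At most 2 were called without WT replicate 1, 2 or 3 or either DKO array in turn. Srp9 and Qsox1 lost the call without any array of the 6, Txndc12 without either DKO array and Psat1 without DKO replicate 2. Between the times in DKO islets 22 were higher and 1 lower (16.8%, beside 7.57% of all genes), with 11 of 29 in the entry list and 7 of 30 in the folding list. The count was 43 without DKO replicate 2 at 7 months, and 1 without DKO replicate 1 and 12 without DKO replicate 2 at 5 weeks. It was 13, 10 and 15 without DKO replicates 1, 3 and 4 at 7 months in turn. Of all genes 5.62%, 4.98% and 6.53% were called in these fits in turn, and 10.9% without DKO replicate 2 at 7 months. Between the times in DKO islets Os9 rose by 0.82 ± 0.12 (limma adjusted p = 0.000664), with 10.12, 9.91, 10.13 and 10.11 at 7 months and 9.13 and 9.36 at 5 weeks. It also rose in WT islets (0.38 ± 0.09, adjusted p = 0.0481). Its fellow lectin Erlec1 rose in DKO islets by 0.52 ± 0.12 (0.0163), and Iars, a tRNA synthetase, was the gene that fell (-0.53 ± 0.13, 0.0244). Erlec1 lost the call without DKO replicate 1 at 5 weeks, and Iars without either DKO array at 5 weeks or DKO replicate 3 or 4 at 7 months. In WT islets 3 of 137 rose, Os9, the glucosyltransferase Uggt2 and the transcription cofactor Crebzf (2.19%, beside 2.37% of all genes), and 1 did without WT replicate 1 or 3 at 7 months or WT replicate 1 or 2 at 5 weeks. Uggt2 passed with each of these arrays left out, and Os9 only without WT replicate 2 at 7 months. In the test of whether the genotype difference changed between the times none of the 137 passed (limma; 11 had an unadjusted p under 0.05), and 1 did without DKO replicate 2 at 7 months.

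**Figure D5:**
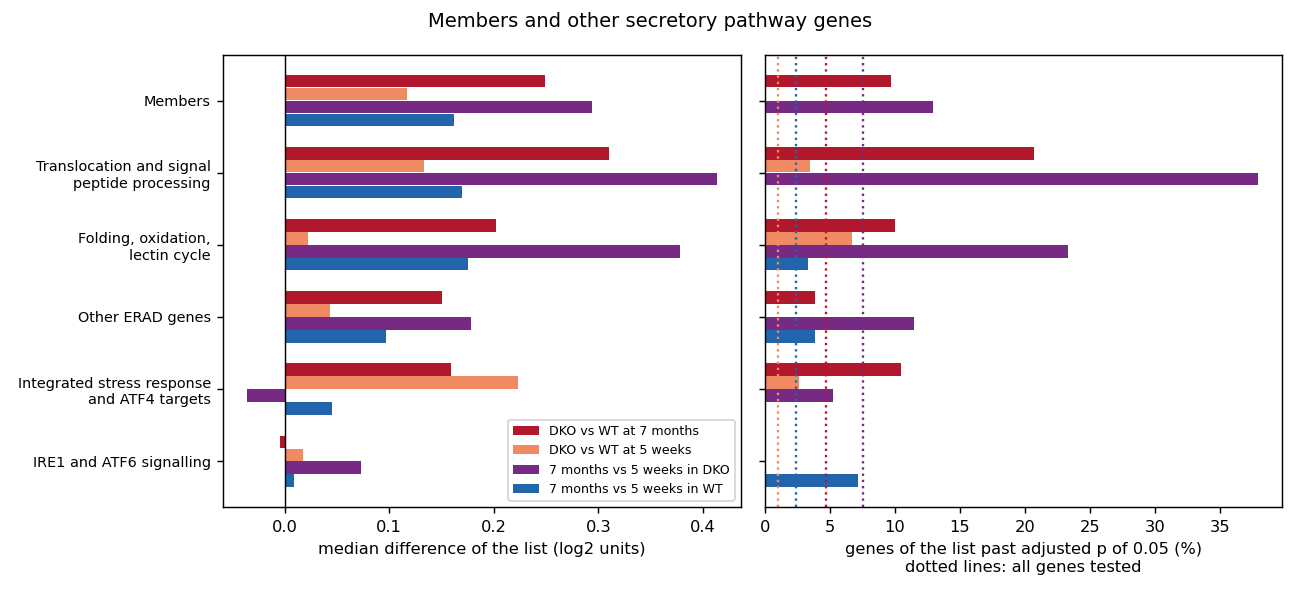
Median log2 difference (left) and percent of genes called (right) for the 31 genes together (Members) and for the 5 further lists of secretory pathway genes, in the 4 comparisons of genotype and time, with dotted lines at the percent of all genes called. At 7 months the entry and signal peptide list had a median of 0.31 and 20.7% of its genes called.

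The promoters were searched for the letters of elements that these transcription factors are known to use. The windows were the 250 bases before each RefSeq gene start (GRCm38.p6), and 29 of the 33 genes had one (not Derl1, Hyou1, Manf and Atf6). The ER stress response element, CCAAT and CCACG 9 bases apart, is bound by ATF6 and XBP1 with NF-Y. On both strands, it was in 9 of the 29 windows and in 0.113% of all 32851 windows. The 33 genes were listed as genes of this response, so a share above that of all windows follows from the list. It is no result about these islets. These 9 were Calr, Canx, Creld2, Derl3, Dnajc3, Hsp90b1, Hspa5, Pdia6 and Syvn1. A related form, ATTGG, any base and CCACG, which shares these letters, was in Herpud1 and in 0.0304% of all windows, and the element TGACGTGG was in none of the 29 and in 0.563% of all. TGATGNAA, the form that ATF4 binds with C/EBP factors, was in Asns, Atf3, Chac1 and Herpud1 and in 3.45% of all windows. The following stretches read along the gene's strand, with the element in capitals (for the first element its 2 fixed parts, for the others the whole match, any variable base included), and cover genes whose values were given above. In Derl3, Creld2, Atf3 and Chac1 the element lies on the opposite strand, so that its letters appear reversed and complemented.
Dnajc3, chr14:118937812-118937860, plus strand: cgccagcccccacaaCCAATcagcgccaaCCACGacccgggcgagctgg
Derl3, chr10:75893227-75893275, plus strand: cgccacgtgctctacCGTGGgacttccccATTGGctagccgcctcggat
Hspa5, chr2:34772010-34772058, plus strand: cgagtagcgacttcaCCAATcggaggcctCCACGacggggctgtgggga
Creld2, chr15:88819505-88819553, plus strand: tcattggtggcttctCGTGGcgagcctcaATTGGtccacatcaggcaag
Pdia6, chr12:17266476-17266524, plus strand: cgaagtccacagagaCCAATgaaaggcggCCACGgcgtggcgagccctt
Syvn1, chr19:6046517-6046565, plus strand: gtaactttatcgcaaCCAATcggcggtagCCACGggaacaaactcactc
Herpud1, chr8:94386362-94386402, plus strand: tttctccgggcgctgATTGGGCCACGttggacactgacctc
Atf3, chr1:191183421-191183458, minus strand: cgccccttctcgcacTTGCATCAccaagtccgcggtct
Asns, chr6:7693210-7693247, minus strand: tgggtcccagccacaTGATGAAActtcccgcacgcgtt
Chac1, chr2:119351034-119351071, plus strand: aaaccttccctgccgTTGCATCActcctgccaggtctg

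Sel1l and Edem1, the ERAD genes that rose, had no such element in the window. The separate letters CCAAT or CCACG, which are in 33.8% and 28.3% of all windows on either strand, occurred 5 times in Sel1l and 3 times in Edem1, at other distances. Their whole windows are printed with these letters in capitals on either strand.
Sel1l, chr12:91849158-91849407, minus strand: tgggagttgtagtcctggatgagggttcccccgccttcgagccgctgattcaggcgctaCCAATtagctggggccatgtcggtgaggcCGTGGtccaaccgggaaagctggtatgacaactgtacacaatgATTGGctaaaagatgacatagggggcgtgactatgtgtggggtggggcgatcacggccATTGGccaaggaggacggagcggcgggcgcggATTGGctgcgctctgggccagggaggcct
Edem1, chr6:108828391-108828640, plus strand: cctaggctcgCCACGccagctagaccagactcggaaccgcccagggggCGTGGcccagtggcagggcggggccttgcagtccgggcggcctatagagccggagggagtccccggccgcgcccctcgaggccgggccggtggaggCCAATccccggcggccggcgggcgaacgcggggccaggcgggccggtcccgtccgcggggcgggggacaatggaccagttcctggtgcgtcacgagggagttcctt

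At 7 months the 9 genes with the first element had a median difference, DKO minus WT, of 0.30 (0.03 to 1.14), all positive, with 1 called. The 18 measured genes with a window and without it had 0.20 (-0.04 to 0.80), with 16 positive and 2 called. The 4 genes with TGATGNAA had 0.41 (0.21 to 0.71) between genotypes at 7 months, and -0.04 (-0.42 to 0.46) between 7 months and 5 weeks in DKO islets, where the 9 genes with the first element had 0.35 (0.11 to 1.95). A match of letters is a description of the window and not a site at which binding was measured.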

How the data were processed

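RNA of islets from 14 mice was measured on a whole-transcript array, with 100 ng of total RNA labelled per sample, per the labels' protocols. Per the submitters' processing notes the authors summarised probes by RMA (no version given here), and the deposited table holds the resulting log2 values. Probe sets with 1 gene symbol were kept (21218 of 35556) and the brightest per gene was used, which gave 18820 genes, named through RefSeq where the Entrez identifier matched (18790). The values were used as deposited.

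With limma 3.58.1 in R 4.3.3, a model of 1 mean per genotype-by-time group was fitted over the 14 arrays (lmFit, then eBayes with its default prior), after a test on simulated data. P-values were adjusted by Benjamini-Hochberg over all genes in each of 5 comparisons and judged at 0.05. They rest on the spread of each gene pooled over all groups, not on that of the groups compared alone. The groups were unequal in spread, as in Hspa5 with an SD of 0.36 in DKO islets at 7 months and 0.08 in WT islets at 5 weeks. The number of arrays limits the precision. Figures were drawn with matplotlib 3.10.9 in Python 3.11.15. Values on every array are given for genes past the threshold in any comparison, for Hspa5 and for the measured sensors and main transcription factors, with further genes shown after their values were seen. Of other lists, up to 4 genes of smallest p per comparison were named. The genes and lists were chosen with earlier results of these data known. Marker lists are means of centred values.

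Alternatives were a fit of only the arrays compared, a trended robust prior, dim genes left out, probe sets averaged, repeated quantile normalization, centring on array medians, a block for the replicate number, a block for the 5 or 7 that the description labels carry, the acinar mean as a covariate, and each array left out in turn. Arrays of the same replicate number deviated from their group means with correlations of -0.16 to 0.16, so the numbers were not taken to pair samples.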

Additional observations from a re-analysis of the deposited data

Results flagged for a closer look

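In 4 of the 93 sets of 4 arrays examined, 1 array lay far from the other 3, by the gap to its neighbour over the whole range, and chance gives about 1 in 20 such sets. In DKO islets at 7 months, replicate 2 was the lowest array in Sel1l, at 9.2461 against 9.53 to 9.57 in the other 3, and in Derl3, at 8.4301 against 9.52 to 9.62. In WT islets at 7 months, replicate 4 was the lowest in Atf3, at 3.9879 against 4.74 to 4.87. In WT islets at 5 weeks, replicate 2 was the lowest in Syvn1, at 7.3019 against 7.50 to 7.53.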

How the results depend on the processing

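Between genotypes at 7 months the 3 genes called became 1 with only the arrays compared, and 0 to 12 with each array left out in turn. Of all genes, 2.59% were called with only the arrays compared, and 2.81% to 8.93% with an array left out. Between the times in DKO islets the 4 called became 0 with only the arrays compared, 0 with the replicate number as a block and 2 with the acinar mean as a covariate, and 0 to 13 with each array left out. Calls over all genes moved there too, to 1.84% with only the arrays compared, 4.59% with the replicate block and 4.96% with the acinar mean. With a DKO array at 7 months left out they were 4.98% to 10.9%. The replicate block gave 4 genes between genotypes at 7 months, and the samples share only a number. At 5 weeks, in WT islets between the times and in the test of the change, the count was 0 under each setting run. Near-zero differences between genotypes at 7 months changed sign with an array left out, for Ern1 (-0.0859 to 0.0166, positive without DKO replicate 4), Xbp1 (-0.0697 to 0.0157, positive without DKO replicate 2) and Atf4 (-0.0031 to 0.1065, negative without WT replicate 3). Of the single-gene differences recomputed, 980 kept direction and call, 193 lost the call, 23 gained it and 3 turned. Of the 137 other secretory genes, the 14 called at 7 months became 9 with the acinar mean, 7 with only the arrays compared, and 6 to 40 with an array left out. The shares of all genes called in these fits were 3.17%, 2.59%, and 2.81% to 8.93%, in the same order. The 23 between the times in DKO islets became 1 with only the arrays compared, 6 with the replicate block, 11 with the acinar mean and 11 with arrays centred, and 1 to 43 with an array left out. The 4 called at 5 weeks became 1 with the acinar mean, and 0 to 2 without each of 5 arrays in turn. The 3 called in WT islets became 5 with only the arrays compared and 1 with repeated quantile normalization. The cause of these moves was not tested. Fewer arrays enter the fits of only the arrays compared, and the spread in them comes from those arrays alone. Where 1 DKO array remained at 5 weeks, its spread was taken from the remaining groups. Genes below the array medians, such as Trib3 in WT islets, have sizes that are not exact.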
